A study of Mus musculus with 8 samples.

Results

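Adrenal gene expression 1 hour after an injection of adrenocorticotropic hormone (ACTH) was compared with that of untreated glands, in wild-type and Siah1a knockout mice together. All 8 of the 8 libraries of the series entered the comparison: 4 libraries from animals given ACTH and 4 from untreated animals. They were chosen by their labels, and genotype was a covariate of the fit. Each library holds the RNA of a whole adrenal gland of a 129SVEV mouse, and each of the 4 groups has 2 animals. The groups were untreated wild type, untreated Siah1a knockout, wild type at 1 h after 100 µg/kg ACTH given into the peritoneum, and Siah1a knockout after the same dose and time. Siah1a encodes an E3 ubiquitin ligase. Each group holds 1 animal labelled male and 1 labelled female. The labels give no age, no allele name and no vehicle injection, so the hormone and the handling that goes with an injection cannot be told apart. Nothing in the labels links animals across groups beyond genotype and sex, and the p-values measure the spread between these 8 animals.

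ACTH is the pituitary peptide that drives the adrenal cortex to make glucocorticoids. It binds the melanocortin 2 receptor (Mc2r), which raises cyclic AMP in the cell and activates protein kinase A. The kinase phosphorylates enzymes and the factor CREB, which binds cAMP response elements in promoters. Immediate early genes, among them the nuclear receptors of the NR4A family and members of the AP-1 family, are textbook early targets of this pathway. Many genes for the enzymes of steroid synthesis are known to follow later.

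Between 8020111 and 29568950 estimated counts were assigned per library, and 15361 of 18846 genes had enough counts to be tested. The unit of all levels is CPM, the count in a library divided by its size after TMM scaling. Steroidogenic transcripts that define the cortex (Star, Cyp11a1, Cyp11b1, Mc2r) and chromaffin transcripts of the medulla were present in every library, as the label of whole gland requires. Several libraries stood apart. In the untreated wild-type library labelled male, 7 kidney markers summed to 1490 CPM (44.4 to 235 CPM elsewhere), and Xist and Y-linked transcripts went against the label, so it is called the kidney-containing library below. In wild type after ACTH, the library with the female label, called the liver-containing library below, had 65580 CPM of 10 liver markers (130 to 709 CPM elsewhere). In knockout after ACTH, the library with the male label had 385 CPM of 10 Schwann cell and neuron markers (55.6 to 104 CPM elsewhere). For this reason 325 genes were set aside after the fit because 1 library exceeded each of the other 7 by 8 times or more, 203 of them highest in the liver-containing library, 102 in the kidney-containing library and 20 in the library with nerve transcripts. This left 15036 genes. The targeted gene was at similar levels in both genotypes of untreated glands (Siah1a 26.3 and 26.1 CPM in wild type, 25.2 and 21.2 CPM in knockout), and in ACTH-treated glands it stood at 33.1 and 32.4 CPM in wild type and 19.0 and 17.4 CPM in knockout. The labels give no allele name, so which part of Siah1a is altered is not known. Whether reads of a remaining part of Siah1a, or of its near copy Siah1b, are counted there was not tested.

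The NR4A receptors were the list with the highest median difference, and their promoters are shown first because they hold matches to a motif that CREB is known to bind. Below are the 250 bases before the start of Nr4a1, Nr4a2, Nr4a3 and Klf4, from RefSeq on GRCm38.p6, each 5′ to 3′ on the strand of the gene, with matches to the cAMP response element core TGACG, which reads CGTCA on the opposite strand, in capitals. Nr4a1 lies at chr15:101266596-101266845 on the plus strand, Nr4a2 at chr2:57124004-57124253 on the minus strand, Nr4a3 at chr4:48045055-48045304 on the plus strand and Klf4 at chr4:55532476-55532725 on the minus strand.
Nr4a1: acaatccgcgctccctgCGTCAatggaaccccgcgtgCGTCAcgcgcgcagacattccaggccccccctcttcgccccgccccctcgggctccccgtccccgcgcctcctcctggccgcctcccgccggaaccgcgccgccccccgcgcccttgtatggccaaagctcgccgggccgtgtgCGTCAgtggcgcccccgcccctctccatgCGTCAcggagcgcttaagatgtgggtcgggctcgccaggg
Nr4a2: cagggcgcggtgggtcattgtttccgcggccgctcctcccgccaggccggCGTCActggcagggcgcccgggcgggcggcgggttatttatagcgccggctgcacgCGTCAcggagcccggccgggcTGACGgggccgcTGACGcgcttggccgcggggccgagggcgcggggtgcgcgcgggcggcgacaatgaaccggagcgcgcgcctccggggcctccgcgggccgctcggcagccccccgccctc
Nr4a3: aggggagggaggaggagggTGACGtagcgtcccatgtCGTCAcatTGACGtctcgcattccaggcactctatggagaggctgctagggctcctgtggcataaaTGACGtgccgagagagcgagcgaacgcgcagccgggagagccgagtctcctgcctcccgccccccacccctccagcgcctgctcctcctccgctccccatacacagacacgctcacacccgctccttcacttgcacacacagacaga
Klf4: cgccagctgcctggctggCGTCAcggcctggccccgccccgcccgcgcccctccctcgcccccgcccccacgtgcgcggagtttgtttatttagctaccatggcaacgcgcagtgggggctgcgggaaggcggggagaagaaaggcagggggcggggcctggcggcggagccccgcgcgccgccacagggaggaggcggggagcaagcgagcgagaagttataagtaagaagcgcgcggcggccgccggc
Each of the 3 NR4A promoters holds 4 TGACG sites, and that of Klf4 holds 1. In Nr4a3 they begin at bases -231, -213, -205 and -147 counted from the start. Of 32851 mouse promoters of the same 300 base window, 20.8% hold at least 1 such site and 0.231% (76 promoters) hold at least 4. The full element TGACGTCA, which contains the core on both strands, is in 1.79% of the promoters and in none of the 4 shown. The element AAAGGTCA, bound by NR4A receptors, is in 1.51% and in none of the 4 shown. The NR4A promoters were picked for their matches, so they do not stand for the higher genes in general. Of the 10 genes named below on the higher side, 6 hold at least 1 TGACG site in this window. That count is per gene, and Tfrc has 2 promoters, so it is not compared with the 20.8% of single promoters. Tiparp, Mt2, Fbxo34 and Zfp36 hold 0. These matches describe the letters in the window and were not measured as binding.

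No gene passed an adjusted p of 0.05 in the comparison of all 4 ACTH-treated with all 4 untreated libraries (edgeR quasi-likelihood test, Benjamini-Hochberg adjustment over all tested genes, 0% called in either direction). The smallest adjusted p was 0.567. At an unadjusted p under 0.05, 542 genes were higher (3.6% of those tested) and 431 were lower (2.87%). The call depended on the test: DESeq2, run as an alternative on the same model, called 66 genes higher and 25 lower, while limma-voom called 0. Of the 91 genes called by DESeq2, 58 had groups that did not overlap. In 317 genes (2.11%) every ACTH-treated library was above every untreated library, and in 269 genes (1.79%) every one was below, which makes 586 genes (3.9%) in either direction. With a difference of at least 2-fold as well, these were 120 genes (0.798%) and 66 genes (0.439%). These counts are a description beside the test, and the share of genes that would separate without any difference was not estimated. Across the 15036 genes the median log2 difference, ACTH minus untreated, was 0.02, and the central 90% lay between -1.20 and 1.34. Because whole glands were measured, fewer cells of a type and less RNA per cell cannot be told apart in any of these values.

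**Figure D1:**
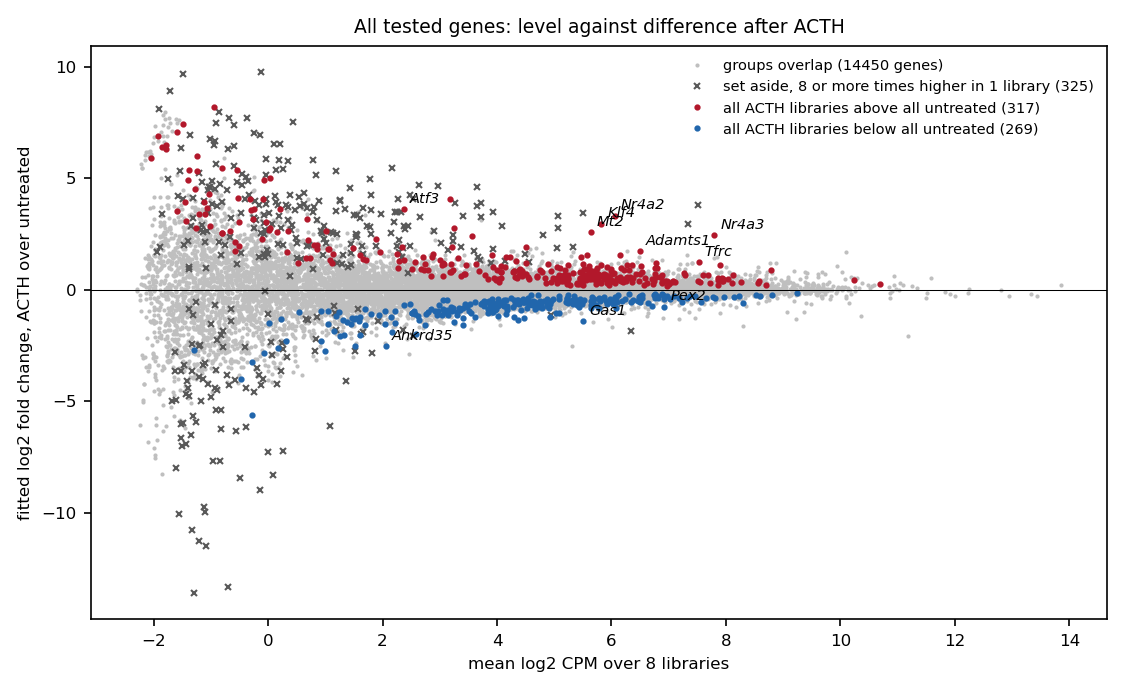
Fitted log2 fold change of ACTH over untreated libraries (vertical axis) against the mean log2 CPM over 8 libraries (horizontal axis), 1 point per tested gene. Red points are the 317 genes with all ACTH-treated libraries above all untreated ones, blue points the 269 genes with all below, and crosses the 325 genes set aside. The labelled genes at higher levels include Klf4, Nr4a2, Nr4a3, Adamts1 and Tfrc above the line and Pex2 and Gas1 below it.

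On the higher side, the rule for naming genes gave Adamts1, Tfrc, Klf4, Tiparp, Mt2, Fbxo34, Cwc25, Zfp36, Nr4a3 and Impdh2. By that rule all 10 had groups that did not overlap, and they had unadjusted p-values from 9.27e-05 to 0.000839 and an adjusted p of 0.567 in edgeR's quasi-likelihood test, so none passed. DESeq2 called all 10, beside 91 of all 15036 tested genes. The 10 had been picked by small p on the same counts, so these calls are no separate support. Below, the values of the untreated libraries are given in the order wild type labelled male, wild type labelled female, knockout labelled male and knockout labelled female, and those of the ACTH-treated libraries follow in the same order.

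Adamts1, a secreted metalloprotease that cleaves matrix proteoglycans (chr16:85793827-85803113, GRCm38.p6), stood at 36.6, 46.0, 82.5 and 43.1 CPM in untreated glands and at 164.5, 93.0, 205.5 and 233 CPM after ACTH. The lowest ACTH-treated library was above the highest untreated one, which was the knockout labelled male. The fitted log2 difference was 1.72 ± 0.25 (SE), with 1.64 in wild type and 1.81 in knockout, and it had the smallest p of all genes that were not set aside. Tfrc, the transferrin receptor that takes iron into cells (chr16:32608896-32632794), stood at 136, 98.8, 109 and 137 CPM in untreated glands and 198, 297, 314.5 and 352 CPM after ACTH. The untreated values lay close together, and the log2 difference was 1.26 ± 0.19. Klf4, a zinc finger transcription factor of the early response, stood at 16.9, 11.3, 52.0 and 16.1 CPM in untreated glands and 136, 131, 107 and 335 CPM after ACTH. Its log2 difference was 2.97 ± 0.46, the largest among these 10 genes.

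Mt2, a metallothionein that binds zinc and is induced by glucocorticoids and metals, stood at 19.3, 12.3, 25.7 and 32.1 CPM in untreated glands and at 80.4, 217, 155 and 70.2 CPM after ACTH. Both wild-type libraries had the lower untreated values, and the highest value after ACTH was in the liver-containing library. The log2 difference was 2.60 ± 0.44 with all libraries and 2.21 without the kidney- and liver-containing libraries. Zfp36, a protein that binds AU-rich messenger RNAs and promotes their decay, stood at 14.5, 21.3, 20.3 and 23.8 CPM in untreated glands and 47.1, 30.2, 59.5 and 45.4 CPM after ACTH, a log2 difference of 1.18 ± 0.23. Tiparp, an ADP-ribosyltransferase known as a target of the aryl hydrocarbon receptor, stood at 20.8 to 34.9 CPM in untreated and 59.9 to 126 CPM in ACTH-treated glands. The remaining higher genes had log2 differences of 1.48 (Fbxo34), 1.16 (Cwc25, a splicing factor) and 1.19 (Impdh2, which makes guanine nucleotides).

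On the lower side, 10 genes were named by the same rule. They were Ttc30b, Pex2, Fam174a, Zmat1, Gas1, Bmf, Fam136a, Chst2, Ankrd35 and Bloc1s3, with unadjusted p-values from 0.000473 to 0.00184 and an adjusted p of 0.567 in edgeR's quasi-likelihood test. None passed. DESeq2 called all 10, and here too the genes had been picked by small p on the same counts, so its calls are no separate support. Ttc30b, a component of the intraflagellar transport machinery of cilia (chr2:75935849-75938462), stood at 36.2, 35.5, 24.0 and 42.3 CPM in untreated glands and 14.86, 14.97, 14.73 and 13.25 CPM after ACTH. The 4 ACTH-treated values lay within a narrow range (SD 0.806 CPM), and the log2 difference was -1.25 ± 0.23. Gas1, a membrane protein of growth arrest that also acts as a Hedgehog co-receptor, stood at 65.3, 83.5, 42.7 and 111 CPM in untreated glands and 37.0, 34.8, 24.3 and 21.5 CPM after ACTH, a log2 difference of -1.40 ± 0.30.

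Bmf, a BH3-only protein that promotes cell death, stood at 15.2 to 20.4 CPM in untreated and 3.77 to 8.82 CPM in ACTH-treated glands, and its log2 difference was -1.60 ± 0.35. Pex2, which serves the import of peroxisomal proteins, stood at 134.7 to 179 CPM and 71.7 to 119 CPM, a log2 difference of -0.76 ± 0.15. Chst2, a sulfotransferase of carbohydrates, had a log2 difference of -0.82, and Ankrd35 had the lowest value of the 10, -2.52, at a level of 0.925 to 3.06 CPM after ACTH.

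**Figure D2:**
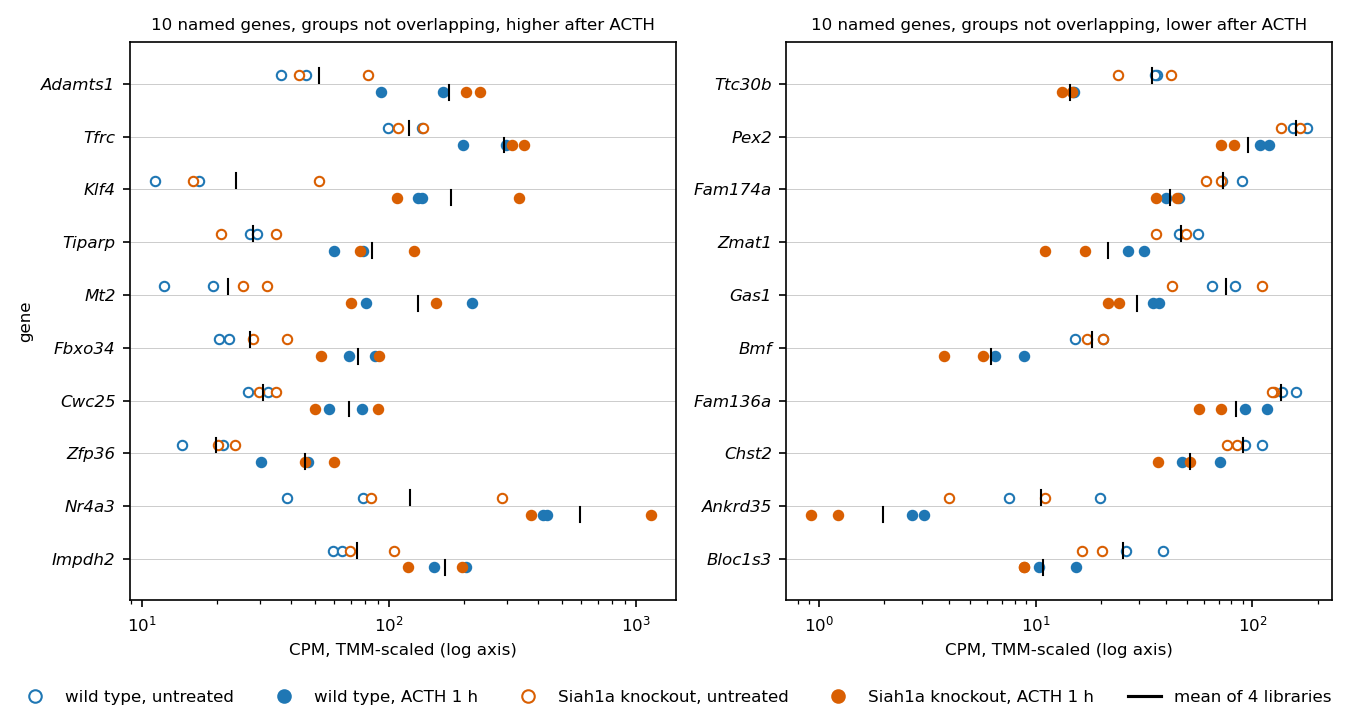
CPM on a log axis of the 10 higher (left) and 10 lower (right) named genes in each of the 8 libraries. Open circles are untreated, filled circles ACTH-treated, blue wild type and orange Siah1a knockout, and black ticks the mean of 4 libraries. In every gene shown the filled circles lie on 1 side of the open circles, and the knockout Nr4a3 value of 1146 CPM stands to the right of the other 3 ACTH-treated libraries.

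Of the NR4A receptors, orphan nuclear receptors that act as transcription factors in steroid-producing cells, all 3 had a positive log2 difference, with a median of 2.45. At an unadjusted p under 0.05, 2 of the 3 were higher, and the same 2 had groups that did not overlap, beside 3.6% and 2.11% of all tested genes. Nr4a3 stood at 38.7, 78.5, 285 and 84.7 CPM in untreated glands and at 419, 434, 375 and 1146 CPM after ACTH. Its log2 difference was 2.45 ± 0.49 (unadjusted p 0.000827, adjusted p 0.567 in edgeR's quasi-likelihood test). Nr4a2 stood at 6.82, 12.0, 115 and 12.1 CPM in untreated glands and at 157, 155.5, 239 and 558 CPM after ACTH, a log2 difference of 3.33 ± 0.68. In both genes the untreated knockout library labelled male was far above the other 3 untreated libraries, and the ACTH-treated knockout library labelled female was the highest of all 8. Nr4a1, named here after its values were seen, is commonly used as a marker of the ACTH response. It stood at 561, 241, 1513 and 694 CPM in untreated glands and at 467, 632, 1882 and 1691 CPM after ACTH. Its groups overlapped, with a log2 difference of 0.57 ± 0.31 and an unadjusted p of 0.0994 in edgeR's quasi-likelihood test. All 3 promoters above hold the same number of TGACG sites, and the part of these sites in the levels was not tested.

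AP-1 genes encode leucine zipper factors of the Fos, Jun and Atf families and the related Maf factors. Of 11 tested members, 9 had a positive log2 difference, the median was 0.75, 6 were higher at an unadjusted p under 0.05 (3.6% of all genes) and 2 did not overlap (2.11% of all genes). Atf3, a repressor induced by stress and by cyclic AMP (chr1:191170296-191183333), stood at 0, 1.64, 5.12 and 1.79 CPM in untreated glands and 16.2, 14.5, 32.2 and 31.4 CPM after ACTH. The groups were well apart, with a log2 difference of 3.63 ± 0.80 and an adjusted p of 0.567 in edgeR's quasi-likelihood test. Mafk stood at 28.6 to 45.8 CPM and 44.2 to 81.7 CPM, a log2 difference of 0.75 ± 0.17. Of members named after their values were seen, Fosb stood at 0, 0.930, 23.1 and 3.09 CPM in untreated glands and 46.8, 38.0, 23.3 and 117 CPM after ACTH. The groups did not overlap, but the untreated knockout labelled male lay just below its ACTH-treated counterpart. Fos itself was at 10.8 to 59.0 CPM without and 9.63 to 74.1 CPM with ACTH, a log2 difference of -0.06 ± 0.38.

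The EGR, IER and CSRNP list holds early growth response factors, their NAB repressors and other immediate early genes. Of 13 tested members 11 had a positive log2 difference with a median of 0.58, 2 were higher at an unadjusted p under 0.05 (3.6% of all tested genes), and 0 of 13 had groups apart, which is near the 2.11% of all genes. Nab2, which represses EGR factors, stood at 8.12, 17.0, 19.3 and 18.6 CPM in untreated glands and 24.4, 19.1, 35.8 and 39.1 CPM after ACTH. Csrnp1, a nuclear protein of the early response, stood at 9.67 to 16.1 CPM in untreated glands, at 20.1 and 12.2 CPM in ACTH-treated wild type and at 106 and 52.8 CPM in ACTH-treated knockout. Its log2 difference was 0.49 in wild type and 2.62 in knockout, and the interaction had an unadjusted p of 0.0123 and an adjusted p of 1 in edgeR's test. Egr1, named after its values were seen, was at 40.7 to 235 CPM in untreated and 46.0 to 238 CPM in ACTH-treated glands. Of 12 tested KLF genes, 2 (Klf4 and Klf16) did not overlap, on the higher side (2.11% of all genes). In this list 10 were positive, with a median of 0.15.

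Genes known to respond to cyclic AMP and CREB had a median log2 difference of 0.45 over 22 members, of which 7 were higher and 1 lower at an unadjusted p under 0.05, beside 3.6% and 2.87% of all genes. Akap12, a scaffold that anchors protein kinase A, stood at 11.6, 27.0, 40.5 and 16.1 CPM in untreated glands and 53.3, 39.3, 133 and 111 CPM after ACTH, a log2 difference of 1.68 ± 0.38. The groups overlapped only through the untreated knockout library labelled male. Sik2, a salt-inducible kinase that holds CREB coactivators in the cytoplasm, stood at 13.5, 16.2, 4.98 and 11.1 CPM without and 41.9, 26.3, 22.4 and 32.7 CPM with ACTH, a log2 difference of 1.49 ± 0.34. Crem, a cAMP-induced member of the CREB family named after its values were seen, stood at 68.0, 85.6, 237 and 40.9 CPM in untreated glands and at 388, 291, 162 and 402 CPM after ACTH. Again the untreated knockout library labelled male was high, and here it exceeded its ACTH-treated counterpart. Pde4d, a phosphodiesterase that degrades cyclic AMP, also named after its values were seen, stood at 22.7 to 46.4 CPM without and 52.7 to 119.5 CPM with ACTH. Sik1 and Rgs2, other members named after their values were seen, had log2 differences of 0.35 ± 0.32 and -0.15 ± 0.13.

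Among feedback inhibitors of MAP kinases and factors of RNA decay, 19 of 23 members had a positive log2 difference, the median was 0.56, 8 were higher at an unadjusted p under 0.05 (3.6% of all genes) and 3 did not overlap (2.11% of all genes). Dusp8, a phosphatase of stress-activated kinases, stood at 8.23, 5.58, 28.0 and 6.91 CPM in untreated glands and 33.7, 22.1, 64.7 and 34.7 CPM after ACTH, a log2 difference of 1.76 ± 0.45. Dusp4 stood at 4.70 to 13.5 CPM and 17.3 to 40.2 CPM, with groups apart, and was named after its values were seen. Dusp1, also named so, was at 36.6 to 78.8 CPM and 40.4 to 115 CPM. The median of this list was 0.69 in wild type and 0.22 in knockout, and the other early lists are given by genotype below.

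The same untreated library, knockout labelled male, was highest of the 4 untreated libraries in Nr4a1, Nr4a2, Nr4a3, Klf4, Atf3, Fosb, Crem, Dusp8, Akap12 and Bag3. These genes were picked after their values were seen, and not all early genes went this way. Sik2 was lowest there, at 4.98 CPM against 11.1 to 16.2 CPM in the other untreated libraries. Zfp36 was at 20.3 CPM there and at 23.8 CPM in the untreated knockout labelled female. The NR4A genes of the untreated knockout library labelled male summed to 1914 CPM, where the other untreated libraries had 331 to 791 CPM and the ACTH-treated ones 1043 to 3395 CPM. Its sum of 16 chromaffin markers, 9408 CPM, was the highest of all (2298 to 8356 CPM elsewhere), as was that of 13 heat shock genes, 14210 CPM (8748 to 12140 CPM elsewhere). Its sum of 10 muscle markers, 479 CPM, was also the highest (117.9 to 267.5 CPM elsewhere). Whether cell makeup or handling of this animal had a part in its early gene levels was not tested.

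Of 24 genes of the steroid synthesis pathway, 16 had a positive log2 difference with a median of 0.18, 2 were higher at an unadjusted p under 0.05 (3.6% of all genes), and 1 had groups apart, higher after ACTH (2.11% of all genes), so both counts are near those of all genes. Por, which passes electrons to microsomal cytochrome P450 enzymes, stood at 163.5, 161, 193 and 105 CPM in untreated glands and 289, 300.2, 197 and 226 CPM after ACTH. Its groups were separated by a narrow gap, and the log2 difference was 0.68 ± 0.20. Npc1, which exports cholesterol from lysosomes, stood at 47.4 to 115 CPM and 111 to 153 CPM, a log2 difference of 0.76 ± 0.27. The textbook members, named after their values were seen, did not separate. Star, which carries cholesterol into mitochondria, had 9998 to 18120 CPM in untreated and 14110 to 18620 CPM in ACTH-treated glands, a log2 difference of 0.21 ± 0.21. The side chain cleavage enzyme Cyp11a1 had a log2 difference of -0.16 ± 0.18, the enzyme Cyp11b1, which makes corticosterone, -0.19 ± 0.23, and the receptor Mc2r -0.22 ± 0.24. Cholesterol synthesis genes had a median of -0.02 over 23 members. Of them, 0 were under an unadjusted p of 0.05 in edgeR's test, beside 6.47% of all tested genes. The first by p, Pmvk, had a log2 difference of 0.69 ± 0.31, and of 0.42 when the ACTH-treated wild type labelled male was left out. Sc5d, the second, had 0.46 ± 0.21, and 0.22 without the kidney- and liver-containing libraries.

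Genes known to be induced by glucocorticoids had a median log2 difference of 0.30 over 20 members, of which 7 were higher and 0 lower at an unadjusted p under 0.05 (3.6% and 2.87% of all genes) and 2 did not overlap (2.11% of all genes). Pdk4, a kinase that restrains the oxidation of pyruvate, stood at 277, 213, 317 and 499.9 CPM in untreated glands and at 748, 414.5, 736 and 1090 CPM after ACTH. Only the untreated knockout library labelled female exceeded the lowest ACTH-treated one, and the log2 difference was 1.20 ± 0.24. Cdkn1a, the cell cycle inhibitor p21, named after its values were seen, stood at 47.4, 18.1, 74.0 and 42.1 CPM without and 81.5, 157, 114 and 169 CPM with ACTH. The classic glucocorticoid targets Fkbp5 and Tsc22d3, named so too, had log2 differences of 0.07 ± 0.20 and -0.28 ± 0.21. The sum of 12 adipocyte markers was 3116 to 5315 CPM in untreated glands and 13050, 6950, 3141 and 8156 CPM after ACTH. Without Scd1, the lipid desaturase that gave most of it in wild type after ACTH, the sum was 4153, 2135, 2895 and 2515 CPM in untreated glands and 5364, 3353, 2945 and 6485 CPM after ACTH, above the untreated range in 2 libraries. Their part in the Pdk4 level was not tested. No adipocyte marker was at 0 in all libraries.

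Of the clock genes, 11 of 19 were positive, with a median of 0.16. Per1, a clock repressor with cAMP response elements in its known control regions, stood at 79.7, 64.5, 95.7 and 79.0 CPM in untreated glands and 92.4, 96.2, 146 and 143 CPM after ACTH, a log2 difference of 0.56 ± 0.14. Bhlhe40, a repressor of the clock and of transcription under low oxygen, was at 152, 174, 107 and 146 CPM without and 102, 159, 36.9 and 37.9 CPM with ACTH. Its log2 difference was -0.32 in wild type and -1.76 in knockout, and the interaction had an unadjusted p of 0.00561 and an adjusted p of 1 in edgeR's test.

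**Figure D3:**
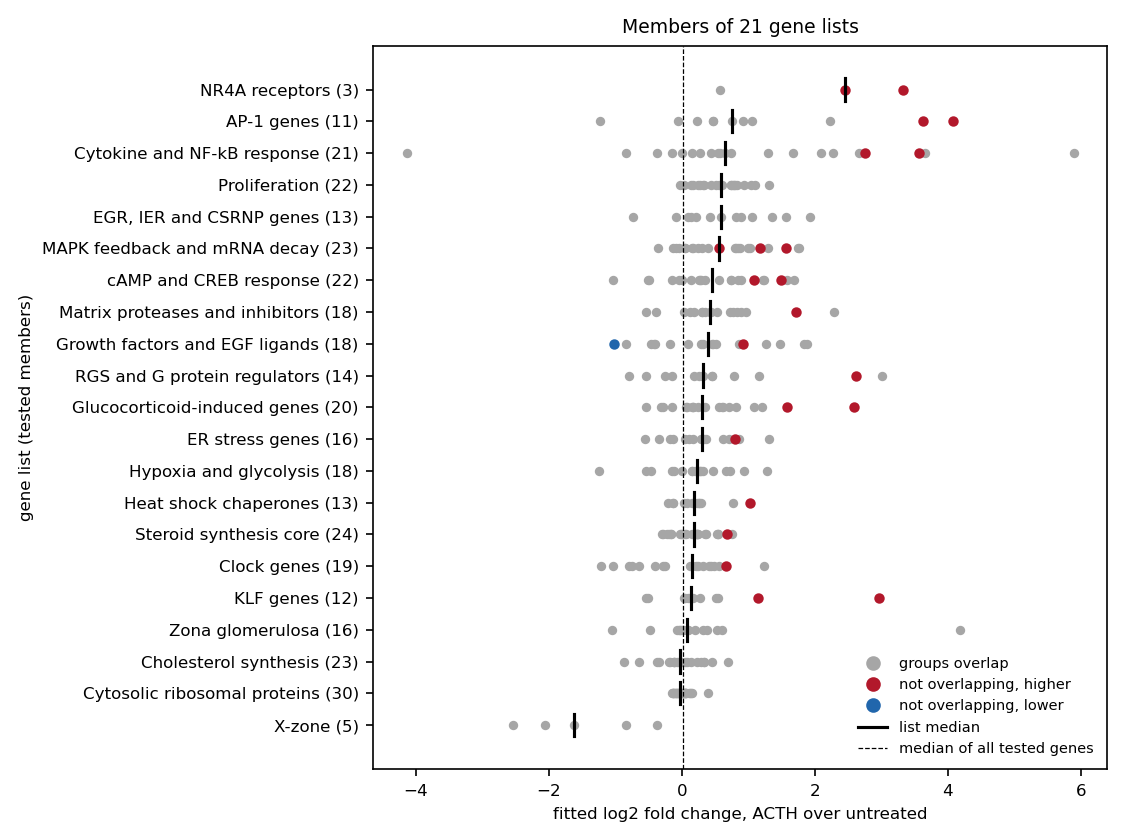
Fitted log2 fold change of ACTH over untreated libraries (horizontal axis) for each tested member of 21 gene lists (rows, number of members in parentheses). Grey points are genes whose groups overlap, red and blue points those that do not, black ticks the list medians and the dashed line the median of all tested genes, 0.02. NR4A receptors and AP-1 genes have the highest medians and the X-zone genes the lowest.

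In the cytokine and NF-kB list, 16 of 21 members were positive with a median of 0.65, 5 were higher and 1 lower at an unadjusted p under 0.05 (3.6% and 2.87% of all genes), and 2 were apart on the higher side (2.11% of all genes). Ptgs2, the inducible enzyme of prostaglandin synthesis, stood at 4.47, 0.712, 10.8 and 2.84 CPM in untreated glands and 23.5, 42.4, 15.01 and 34.2 CPM after ACTH. Its groups did not overlap, and the log2 difference was 2.75 ± 0.75. Nfkbiz, an IkB protein of the nucleus, was at 3.88 to 16.7 CPM without and 12.4 to 66.3 CPM with ACTH. Of 18 growth factor genes, Fgf9 stood at 52.0, 42.4, 54.2 and 38.4 CPM in untreated glands and 18.2, 11.9, 36.8 and 33.2 CPM after ACTH, a log2 difference of -1.03 ± 0.31 with groups that did not overlap (-0.67 without the kidney- and liver-containing libraries). The second, Igf2, rested on the liver-containing library, which held 202 CPM against 16.3 to 44.4 CPM in the other ACTH-treated libraries. Its log2 difference was 1.89 with all libraries and 0.52 without the kidney- and liver-containing ones.

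Of 18 genes for matrix proteases and their inhibitors, 16 were positive with a median of 0.43. Beside Adamts1, the rule named Ctgf, a matricellular protein that responds to YAP, which stood at 57.3 to 145 CPM without and 48.5 to 90.0 CPM with ACTH (log2 difference -0.54 ± 0.16). Regulators of G proteins had a median of 0.31 over 14 members. Rgs5 was at 65.2 to 86.2 CPM without and at 130, 169, 49.9 and 157 CPM with ACTH, where the knockout library labelled male was below all untreated ones. Rgs16 was near the limit of counting, at 0 to 1.59 CPM and 2.04 to 4.85 CPM.

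Stress genes had medians between 0.18 and 0.30. Atf4, the effector of the integrated stress response, stood at 214, 208, 286 and 259 CPM without and 268, 303, 517 and 424 CPM with ACTH, a log2 difference of 0.61 ± 0.14. Ppp1r15a, which reverses that response, was at 17.1 to 51.0 CPM and 39.6 to 127 CPM, a log2 difference of 1.31 ± 0.30. Hspa1b, an inducible chaperone, stood at 17.4, 15.3, 34.8 and 31.9 CPM and at 38.3, 40.6, 43.5 and 70.2 CPM, a log2 difference of 1.02 ± 0.21, and reads may be shared with its near-identical copy Hspa1a. Hspa1a, named here only for that reason and after its values were seen, was at 7.39 to 27.9 CPM and 16.2 to 21.5 CPM. Bag3, a chaperone partner, was at 156, 179, 370 and 162 CPM and at 394, 310, 307 and 425 CPM. The hypoxia and glycolysis list had a median of 0.23, and its first gene, Pfkfb3, was at 51.6 to 59.2 CPM without and at 178, 128, 42.3 and 102 CPM with ACTH. Egln3, an oxygen-sensing hydroxylase, had a log2 difference of 1.28 ± 0.50.

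The genes of the X-zone, the inner cortical layer of young and female mice, stood on the lower side: all 5 had a negative log2 difference, the median was -1.62, and 3 were lower at an unadjusted p under 0.05, beside 2.87% of all genes. In 0 of 5 were the groups separate, beside 1.79% of all tested genes on the lower side. Cyp2f2, a cytochrome P450 of this zone, stood at 494, 1038, 344 and 564 CPM in untreated glands and 167, 576, 112 and 86.3 CPM after ACTH, a log2 difference of -1.62 ± 0.45. Thrb, the thyroid hormone receptor, stood at 143, 198, 91.9 and 118 CPM and at 126, 162, 37.4 and 40.4 CPM. Akr1c18, the progesterone-degrading enzyme that defines the zone, was named after its values were seen and stood at 6184, 9273, 1129 and 7186 CPM and at 3266, 6578, 134 and 618 CPM. The values were lowest in the 2 ACTH-treated knockout libraries for each of these 3 genes. By genotype, the list median was -0.65 in wild type and -2.19 in knockout, and a fit of the wild-type libraries alone gave -0.64. Thrb had log2 differences of -0.25 in wild type and -1.435 in knockout. Its interaction had an unadjusted p of 0.00978 in edgeR's test and did not pass adjustment. These 5 genes share their cells, so their common sign is not a set of independent observations. The zone is known to differ with sex and age, and the ages are not given. By Xist, 3 of the untreated libraries (352 to 507 CPM, the kidney-containing one among them) and 2 of the ACTH-treated ones (253 and 761 CPM) were female-like, against 4.05 CPM in the remaining untreated library and 5.98 and 31.8 CPM after ACTH. The part of this imbalance in the X-zone levels was not tested.

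Of 16 zona glomerulosa genes, 10 were positive and the median was 0.09. Agtr1b, an angiotensin II receptor, stood at 14.9, 20.1, 53.6 and 21.9 CPM without and 9.55, 5.35, 23.6 and 17.6 CPM with ACTH (log2 difference -1.05 ± 0.35). Kcnj5, a potassium channel, was detected in 1 of 4 untreated and 3 of 4 ACTH-treated libraries, at 1.46 CPM or less. Cyp11b2, the aldosterone synthase, named after its values were seen, was at 11.3 to 44.7 CPM and 12.6 to 78.2 CPM. Proliferation genes were positive in 21 of 22 members with a median of 0.58. However, 0 of 22 had an unadjusted p under 0.05 in edgeR's test, beside 6.47% of all tested genes. Rrm2, a subunit of ribonucleotide reductase, was at 6.47, 35.2, 3.19 and 9.51 CPM without and 24.8, 71.7, 9.46 and 24.7 CPM with ACTH, a log2 difference of 1.31 ± 0.62 (0.79 without the kidney- and liver-containing libraries). Cdc20, an activator of the anaphase-promoting complex, had a log2 difference of 1.05 ± 0.56, and of 0.31 when the ACTH-treated knockout labelled female was left out. The members share their cells, so their common sign is not a set of independent observations. Cytosolic ribosomal protein genes had a median of -0.03 over 30 members within a range of -0.15 to 0.40. Rps19, a protein of the small subunit, was at the head of this list with an unadjusted p of 0.241, and reads of its pseudogenes may be counted there.

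**Figure D4:**
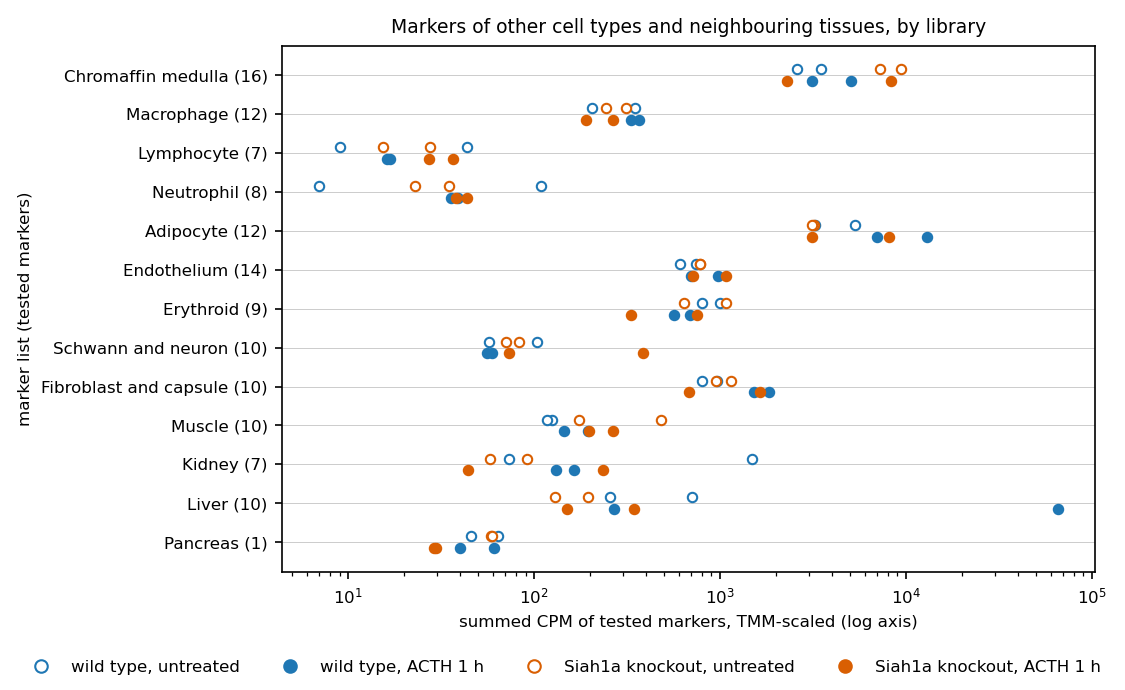
Summed CPM on a log axis of the tested markers of 13 other cell types and neighbouring tissues (rows, number of markers in parentheses) in each library, open circles untreated and filled circles ACTH-treated. Single libraries stand apart for kidney (1490 CPM), liver (65580 CPM) and Schwann cells and neurons (385 CPM). To a lesser degree 1 library also does for neutrophil markers (109 CPM, kidney-containing library) and for muscle markers (479 CPM, untreated knockout labelled male). In the other lists the untreated and ACTH-treated groups overlap.

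The response was also compared between the genotypes. No gene had an interaction of genotype and treatment at an adjusted p of 0.05 (edgeR quasi-likelihood test, 0% called), 305 genes (2.03%) had one at an unadjusted p under 0.05, and DESeq2 called 3. With 2 animals in each group, 4 degrees of freedom remained. Over the 12244 genes with a mean log2 CPM of at least 1, the log2 differences in wild type and in knockout had a Pearson correlation of 0.189 across genes, which are not independent replicates, and 58.4% had the same sign. The 4 libraries behind each value differ, so the 2 sets of differences share no samples. Of the 79 such genes in the 6 lists of early response (AP-1, EGR, KLF, NR4A, cAMP and MAPK feedback), 53 (67.1%) were positive in both genotypes, beside 30.3% of all genes. By genotype, 58 of the 79 were positive in wild type and 64 in knockout. These lists were chosen with earlier results of these data known, and their members share libraries, so the share is a description only. Klf4 had log2 differences of 3.25 in wild type and 2.70 in knockout, Nr4a2 4.04 and 2.64, and Atf3 4.10 and 3.20. The list medians did not all go this way. In wild type and knockout they were 0.585 and 0.725 (AP-1), 0.422 and 0.702 (EGR), and 0.103 and 0.381 (KLF). The cAMP list had 0.261 and 0.442, the NR4A list 2.86 and 2.04, and the MAPK feedback list 0.685 and 0.217.

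The 3 genes with the smallest interaction p were Fxyd1, Hist1h2bc and Sec14l4, and none passed (adjusted p of 1 in edgeR's test). Fxyd1, a regulator of the sodium pump, was at 7.29 and 9.69 CPM in untreated wild type and 29.3 and 33.3 CPM after ACTH, against 21.3 and 24.8 CPM in untreated knockout and 12.6 and 14.0 CPM after ACTH. The genotypes had opposite signs, with log2 differences of 1.88 and -0.79 and an interaction p of 0.000862. Hist1h2bc, a histone gene with near-identical copies that may share reads, was at 66.8 to 70.0 CPM and 56.7 to 71.6 CPM in wild type, and at 33.7 to 48.0 CPM and 8.25 to 12.2 CPM in knockout. Sec14l4, a lipid transfer protein, was at 9.53 and 10.8 CPM in untreated and 5.19 and 28.9 CPM in ACTH-treated wild type, and at 1.40 and 3.58 CPM in untreated knockout and 0 in both ACTH-treated knockout libraries. Siah2, a relative of Siah1a named after its values were seen, was at 1.41, 21.5, 21.5 and 15.4 CPM in untreated glands and 27.6, 27.9, 33.6 and 32.3 CPM after ACTH. Its groups did not overlap, but its unadjusted p was 0.123, and the kidney-containing library held the lowest value.

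**Figure D5:**
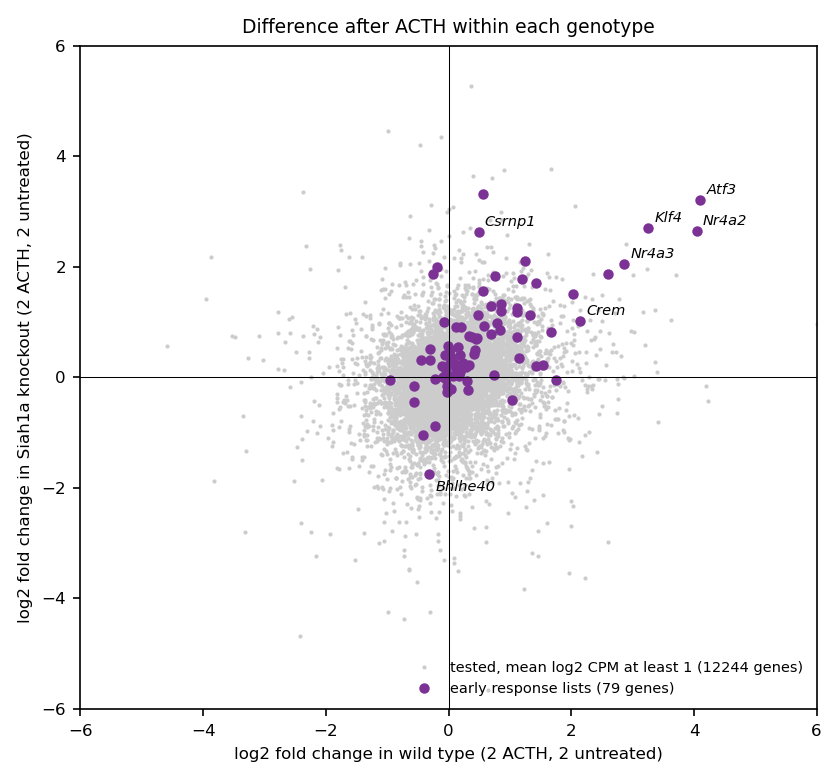
Log2 fold change of ACTH over untreated libraries in Siah1a knockout (vertical axis, 2 against 2 libraries) against that in wild type (horizontal axis, 2 against 2), 1 point per gene with a mean log2 CPM above 1, and 6 genes lie outside the axes. The 79 genes of the early response lists are purple. Of these, 53 are positive on both axes, among them Atf3, Klf4, Nr4a2 and Nr4a3, while Bhlhe40 lies below 0 on both axes.

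Gene length was looked at as a property that the comparison did not use. The median span of the gene on the genome (RefSeq, GRCm38.p6) was 26.29 kb for the genes with all ACTH-treated libraries above and 20.52 kb for those with all below, beside 23.29 kb for all tested genes. For the genes apart by at least 2-fold it was 16.81 kb on the higher and 19.02 kb on the lower side. The 2-fold genes were also lower in level, with median log2 CPM of 1.10 and 2.10 beside 4.36 for all.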

How the data were processed

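RNA was sequenced from 8 mouse adrenal glands as directional single reads of 75 bases, per the labels' protocols. The submitters' processing notes name FastQC (0.11), TopHat2 (2.0.13), Bowtie2 (2.2.5.0), Partek (6.6) and build mm10, with no order or settings. Per the file headers, the authors deposited for 28678 transcripts RPKM values and an estimated count per library. How strand and multiply matching reads were treated is not recorded there.

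Counts were summed per gene symbol to 18846 genes, rounded to whole numbers, filtered with edgeR's filterByExpr (minimum count 10, which removed 3485 genes) and scaled by TMM factors of 0.888 to 1.065. The main test was the quasi-likelihood F-test of edgeR (4.0.16, in R 4.3.3) with genotype and treatment, 5 residual degrees of freedom and Benjamini-Hochberg adjustment over all 15361 genes. Each standard error is the fold change over the root of F. The interaction had a model of its own. The RPKM values were used only for mean levels beside the counts. Libraries differed beyond sampling noise (pairwise Pearson r from 0.768 to 0.965, with a median chi-square ratio of 19.5 or more). The scripts were tested on simulated data.

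The members and gene lists were chosen with earlier results of these data known. The rule for naming genes took, in each direction, up to 15 called genes or, with fewer than 10 called, the 10 smallest p-values among genes with groups that did not overlap and at least 1 as mean log2 CPM. It added the 2 smallest p-values of each of 21 lists and the 3 smallest interaction p-values, and genes beyond it are stated to be named after their values were seen. Of the genes it names, 1 is not reported here. Alternatives were RLE factors, no or a stricter filter, DESeq2 (1.42.0), limma-voom (3.58.1), a robust fit, other covariates, the set-aside rule, each genotype alone and each library left out. Sample weights in limma-voom were added after the data were seen. Promoters came from the RefSeq table of GRCm38.p6, which held 75.7% of the tested genes, below the 80% set for comparing sets, so the shares of gene sets were not compared, and the 4 promoters shown are set only beside the share of all promoters in the table.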

Additional observations from a re-analysis of the deposited data

Results flagged for a closer look

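Of 120 groups of 4 libraries checked (60 named genes, untreated and ACTH-treated), 6 held 1 library far from the other 3, by Dixon's ratio of its gap to the range of the group at the 95% level. Chance flags about 1 in 20 groups. On the ACTH side, Nr4a3 stood at 1146 CPM in the knockout library labelled female, against 375 to 434 CPM in the others. Ttc30b was lowest in the same library, at 13.25 CPM against 14.73 to 14.97 CPM, and Rgs16 was highest in the wild-type library labelled female, at 4.85 CPM against 2.04 to 2.30 CPM. On the untreated side, Nab2 stood at 8.12 CPM in the library labelled wild-type male against 17.0 to 19.3 CPM, and Bag3 at 370 CPM in the knockout library labelled male against 156 to 179 CPM. Kcnj5 was at 0.164 CPM in the wild-type library labelled female and at 0 in the other 3, which is within the counting limit of 3 counts.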

How the results depend on the processing

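Neither direction gained a call (0 genes) with RLE factors, either filter, limma-voom, the robust fit, other covariates, the set-aside settings, each genotype alone, without the kidney- and liver-containing libraries (smallest adjusted p 0.0535) or with limma-voom sample weights, added after the data were seen. DESeq2 called 66 higher, 25 lower and 3 interactions. Of the 60 named genes, 31 were among its 91 calls, which came from 15036 tested genes. The named genes were picked by small p in these same libraries, so this overlap is no separate support. Leaving out each library gave 0 to 3 higher, 0 to 2 lower and 0 to 1 interactions. The 3 higher (Afp, Serpina10, Tfrc) came when the wild-type male label was left out of the ACTH group, which leaves the liver-containing one alone in its group, and the 2 lower (Slc34a1, Slc5a12) when the wild-type female label was left out of the untreated group, which leaves the kidney-containing one. Genes with groups apart numbered 816 higher and 890 lower without the kidney- and liver-containing libraries, and 487 to 785 higher and 367 to 600 lower with 1 library left out, since fewer libraries separate more easily. At 20 times, 169 genes were set aside in place of 325. Of the named genes, Fxyd1 had -0.028 without the kidney- and liver-containing libraries and -0.78 in knockout alone (0.54 with all), and Sec14l4 0.44 without a covariate and 0.76 in wild type alone (-1.84 with all). All other values of the 60 named genes kept their sign under the alternatives run. No paired analysis was possible because the replicate numbers follow accession order and pair no animals. Depth limits genes near 3 counts in a library.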
